A study of Mus musculus with 10 samples.

Results

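BAF chromatin remodellers are large complexes of an ATPase and its partner subunits, and the RNA levels of 10 genes encoding their core subunits were followed from mouse ES cells to blood progenitors. The genes were Smarca2, Smarca4, Smarcc1, Smarcc2, Smarcd1, Smarcd2, Smarcd3, Arid1a, Arid1b, and Actl6a. They were chosen by name, with no measured value used in the rule but with earlier results of these data known. All 10 were found among the 15686 genes of the authors' matrix of stage means and among the 55487 genes of the count tables. Nuclear RNA was sequenced from the mouse ES cell line HM-1 at 5 stages of serum differentiation with 2 libraries per stage. ES were undifferentiated cells kept with LIF, and HB were FLK1+ cells isolated with magnetic beads from embryoid bodies grown for 3 d. HB cells were then cultured in blast medium with VEGF and IL-6, and FACS divided the KIT+ TIE2+ cells into HE1, which were CD41-, and HE2, which were CD41+, and took KIT+ CD41+ cells that were TIE2- as HP. HE1 and HE2 are stages of the hemogenic endothelium, the endothelium that gives rise to blood, and HP are hematopoietic progenitors. No altered gene is named for any group, and all cells came from the same line, which the paper calls a targeting line. Fewer cells of a type cannot be told apart from less RNA per cell in these bulk libraries.

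BAF complexes use the energy of ATP to slide or eject nucleosomes and so open enhancers and promoters to transcription factors. Each complex carries a single ATPase, Smarca4 or Smarca2, built onto scaffold subunits of the Smarcc family, with a Smarcd subunit that contacts transcription factors, an Arid1 subunit that defines the canonical complex, and the actin-related protein Actl6a. Because each place can be filled by alternative paralogs, the composition differs between cell types, and ES cells are known for a form built around Smarca4 and Smarcc1 that sustains pluripotency.

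The starting regions of the ATPase genes are shown because these paralogs, which compete for the same place, differed most in their course. Each sequence is the stretch of 140 bases, on the plus strand, that ends just before the first annotated start of the gene. Bases are from RefSeq on GRCm38.p6, the assembly of mm10, at chr19:26604910-26605049 for Smarca2 and chr9:21616029-21616168 for Smarca4. Capitals mark CpG dinucleotides.
Smarca2: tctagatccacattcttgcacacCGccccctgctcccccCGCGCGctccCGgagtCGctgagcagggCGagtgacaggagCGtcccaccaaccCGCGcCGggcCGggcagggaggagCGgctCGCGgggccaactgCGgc
Smarca4: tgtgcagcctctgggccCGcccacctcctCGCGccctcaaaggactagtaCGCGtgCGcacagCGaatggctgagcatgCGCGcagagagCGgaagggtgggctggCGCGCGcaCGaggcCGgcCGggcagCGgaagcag
The Smarca2 stretch holds 16 CpG and the Smarca4 stretch 17, against a median of 3 in the last 140 bases before the start of 32851 RefSeq promoters. At least as many CpG as in Smarca4 are found in 9.3% of those promoters. The first annotated start of Smarca2 lies 110 bases before its RefSeq start, so that its count and those of the promoters are from unlike positions. The GC box GGGCGG, searched on both strands, occurs 1 time in each stretch and in 28.0% of the promoters, and its match contains a CpG.

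The libraries held between 24920434 and 58782055 counts, so that 3 counts, the floor, were 0.0532 to 0.126 CPM, which are counts scaled to the size of the library. The summed level of 5 ES markers such as Pou5f1 was 1919.3 to 1996.8 CPM in ES and that of 5 endothelial markers such as Cdh5 was 1719.8 to 2945.2 CPM in HE1. The HE2 libraries differed from each other, with endothelial markers at 1752.8 and 964 CPM and 5 blood progenitor markers such as Runx1 at 860 and 1110.2 CPM, against 1119.2 and 948 CPM for the latter in HP. HE1 replicate 2 stood apart, with ES markers at 66.9 CPM (all 5 detected, 3.42% of the ES mean) against 6.31 CPM in HE1 replicate 1 and 98.7 and 74.5 CPM in HB. The sum of 5 heart markers was 86.0 CPM there against 22.1 CPM in HE1 replicate 1, of which Tnnt2 alone gave 74.2 and 16.0 CPM, while Nkx2-5 was at 4.03 and 4.33 CPM. The sum of 5 neural markers such as Tubb3 was 78.7 CPM there, of which Tubb3 gave 73.5, against 31.6 CPM in HE1 replicate 1, 77.4 and 79.6 CPM in ES, and at most 26.9 CPM in HE2 and HP. Smooth muscle markers, mainly Acta2 and Tagln, summed to 363 to 942 CPM in the libraries of HE1, HE2, and HP and to 27.7 and 28.5 CPM in HB, whereas Myocd of the same list was highest in HB, at 11.3 and 14.6 CPM, and at or below 4.03 CPM in those later libraries. The part of these markers in the results below was not tested, and the calls of the subunit genes that rest on HE1 are also given without HE1 replicate 2.

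Levels of the 10 subunit genes were compared between stages by the quasi-likelihood test of edgeR, adjusted by Benjamini-Hochberg over all 22596 genes tested and a call at an adjusted p under 0.05. All 10 genes passed the filter on low counts. Across all stages, 7 of 10 differed, against 66.7% of all tested genes, and the genes without a call were Smarca4 (adjusted p = 0.243), Arid1a (adjusted p = 0.204), and Smarcd2 (adjusted p = 0.0681). The difference between the highest and the lowest stage mean had a median of 0.83 on the log2 scale over the 10 genes and of 1.56 over all tested genes. It was 0.7 over 20 other genes of BAF and related complexes and 0.89 over 18 ATPase genes of other remodelling families. Narrow limits were thus not particular to the 10 genes, of which Smarca2 at 5.62 and Smarcd3 at 2.2 had the widest ranges.

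**Figure D1:**
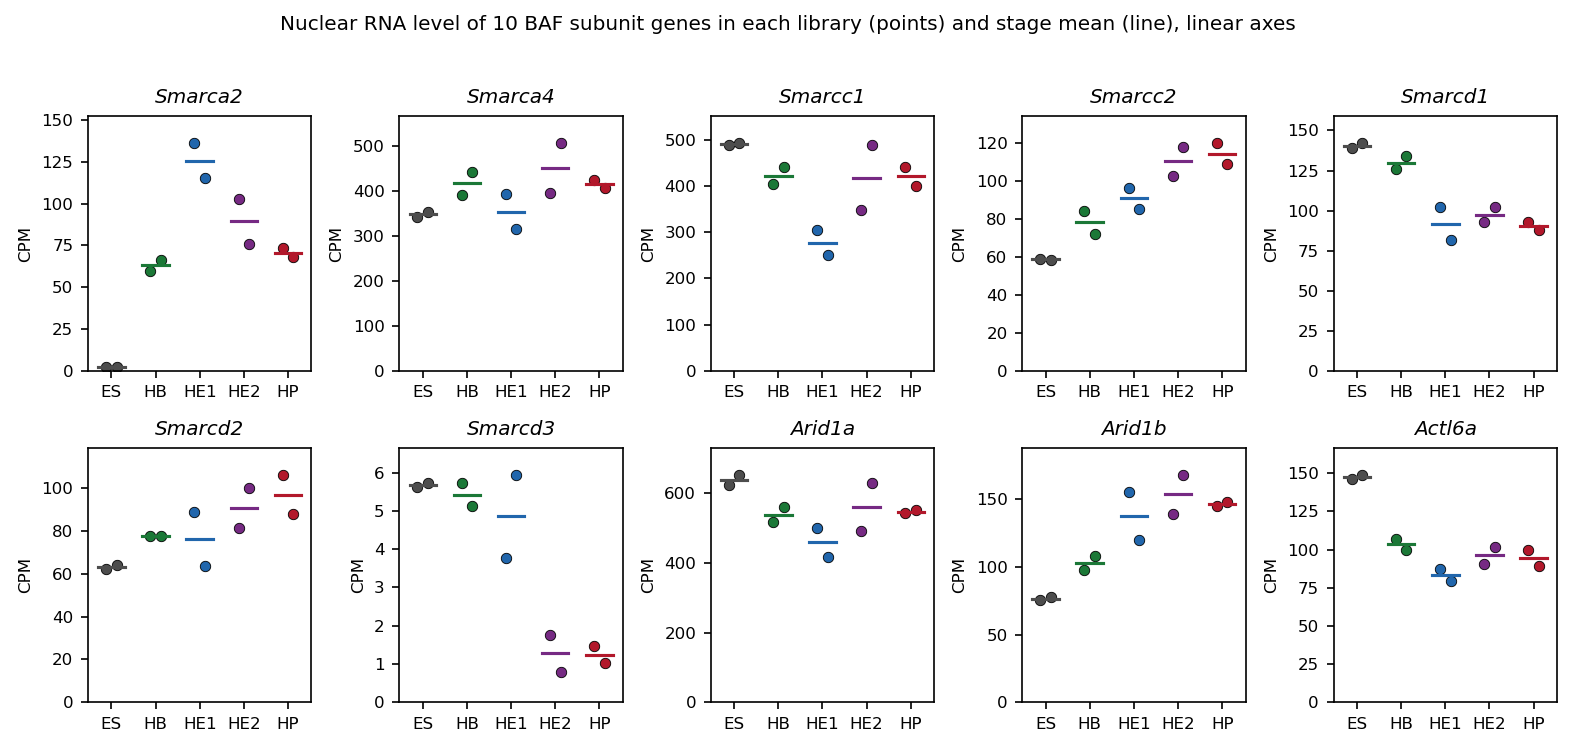
CPM of each BAF subunit gene (linear axis from 0) in the libraries of ES, HB, HE1, HE2, and HP, with points for libraries and lines for the mean of 2 libraries. Smarca2 went from 2.47 and 2.52 CPM in ES to 59.7 and 66.5 CPM in HB, and Smarcd3 was at or below 1.77 CPM in HE2 and HP.

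The ATPases took different courses. Smarca2 was at 2.52 and 2.47 CPM (ES), 59.7 and 66.5 (HB), 136 and 115 (HE1), 103 and 75.7 (HE2), and 73.6 and 67.8 (HP). The ES libraries lay far below all others, the HE1 libraries lay highest, and neither overlapped with HB or HP. The RNA rose 25.3-fold from ES to HB (log2 fold change 4.66 ± 0.20 SE, adjusted p = 4.05e-07 by edgeR), which placed it 388th of the 22596 tested genes by the size of its rise. It rose again 1.99-fold from HB to HE1 (log2 fold change 0.99 ± 0.17 SE, adjusted p = 0.00183 by edgeR). From HE1 to HE2 and from HE2 to HP it was not called, at -0.49 (adjusted p = 0.0754 by edgeR) and -0.34 (adjusted p = 0.7 by edgeR). The comparison of HP with HE1 was added after the values had been seen. In it Smarca2 fell by 0.83 on the log2 scale (± 0.17 SE, adjusted p = 0.00636 by edgeR) but ended 28.3-fold above ES. Without HE1 replicate 2 the rise into HE1 was 1.11 (adjusted p = 0.00297 by edgeR) and the later change was -0.94 (adjusted p = 0.0107 by edgeR).

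Smarca4, the ATPase of the ES cell form, stayed abundant. It was at 343 and 354 CPM (ES), 392 and 443 (HB), 394 and 316 (HE1), 396 and 507 (HE2), and 425 and 408 (HP). The HE1 libraries fell on either side of the ES libraries. None of the stage comparisons reached the threshold, with a log2 fold change of 0.26 ± 0.17 (SE) from ES to HP (adjusted p = 0.239 by edgeR). That comparison passed with library totals (0.34, adjusted p = 0.041 by edgeR) and with only the 4 compared libraries (0.30, adjusted p = 0.0202 by edgeR), and under the latter setting so did ES to HB (0.29, adjusted p = 0.0235 by edgeR). Of the exonic length of Smarca4, 1.53% is shared with Gm27373 on the same strand, where a read pair was counted on both genes.

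The balance between the ATPases was compared as CPM per kb of exon. This corrects for the annotated exon length, 14269 bases for Smarca2 and 6475 for Smarca4, and not for the length of the transcripts in use. Smarca2 made up 0.323% ± 0.012 (SD, n = 2) of the ATPase RNA per kb in ES, 6.42% ± 0.062 (HB), 13.9% ± 0.49 (HE1), 8.47% ± 3.0 (HE2), and 7.15% ± 0.20 (HP). The HE2 libraries were furthest apart, at 10.6% and 6.34%. The replicate with more endothelial marker RNA had the higher share in HE2 (10.6%) and the lower in HE1 (13.5% against 14.2%). The level of Smarca2 itself was higher in that replicate in both stages, at 136 against 115 CPM in HE1 and 103 against 75.7 CPM in HE2. Smarca4 remained the more abundant ATPase in every library. Without the length correction the mean share of Smarca2 was 0.71% (ES), 13.1% (HB), 26.2% (HE1), 16.8% (HE2), and 14.5% (HP). The log2 ratio of Smarca2 to Smarca4 differed between stages (exact permutation test over all assignments of the 10 libraries to stages, p = 0.00952, adjusted over 5 ratios 0.0119) and was 4.54 higher in HP than in ES.

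Of the scaffold genes, Smarcc2 rose from ES to HP and Smarcc1 was lower in HE1 than in HB. Smarcc2 was at 58.9 and 58.6 CPM (ES), 84.1 and 72.4 (HB), 96.6 and 85.4 (HE1), 103 and 118 (HE2), and 120 and 109 (HP). The ES libraries lay below all others and the HE2 and HP libraries above those of the earlier stages. Smarcc2 rose 1.95-fold from ES to HP (log2 fold change 0.96 ± 0.14 SE, adjusted p = 0.000294 by edgeR). Of this, 0.41 fell between ES and HB (adjusted p = 0.0407 by edgeR), a call that was lost without either ES library (adjusted p = 0.186 and 0.192 by edgeR), without either HB library (0.226 and 0.0644), and without either HP library (0.064 and 0.0639).

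Smarcc1 was at 488 and 492 CPM (ES), 403 and 441 (HB), 304 and 251 (HE1), 347 and 489 (HE2), and 441 and 400 (HP). The HE1 libraries were lower than those of every other stage, and the HE2 libraries were far apart. From HB to HE1 Smarcc1 fell by 0.60 on the log2 scale (± 0.19 SE, adjusted p = 0.0311 by edgeR). The step from HE1 to HE2 was not called, at 0.59 (adjusted p = 0.0591 by edgeR). From HE1 to HP, a comparison added later, Smarcc1 rose by 0.60 (± 0.19 SE, adjusted p = 0.039 by edgeR), so that HP and ES differed by -0.22 (adjusted p = 0.349 by edgeR). Neither the fall nor the rise passed the threshold without HE1 replicate 2, at -0.47 (adjusted p = 0.134 by edgeR) and 0.47 (adjusted p = 0.177 by edgeR). The fall was also lost without either HB library (adjusted p = 0.0587 and 0.14 by edgeR), and the rise without either HP library (0.195 and 0.0712), either ES library (0.0606 and 0.0607), or either HB library (0.051 and 0.051).

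The share of Smarcc2 in the Smarcc RNA per kb was 14.5% ± 0.11 (SD, n = 2) in ES, 20.8% ± 2.8 (HB), 31.7% ± 1.0 (HE1), 27.5% ± 2.9 (HE2), and 27.7% ± 0.077 (HP). Smarcc1 was the larger part in each stage. The log2 ratio of Smarcc2 to Smarcc1 differed between stages (exact permutation test, p = 0.00317, adjusted over 5 ratios 0.00529) and was 1.18 higher in HP than in ES.

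In the Smarcd family, which links the complex to transcription factors, Smarcd1 fell and Smarcd2 rose from ES to HP. Smarcd1 was at 139 and 142 CPM (ES), 126 and 134 (HB), 102 and 81.9 (HE1), 93.1 and 102 (HE2), and 93.0 and 87.8 (HP). The ES and HB libraries lay above all of the later ones. Smarcd1 fell by 0.64 on the log2 scale from ES to HP (± 0.14 SE, adjusted p = 0.00373 by edgeR), with the step from HB to HE1 at -0.50 (adjusted p = 0.0228 by edgeR). That step was lost without HE1 replicate 2 (-0.35, adjusted p = 0.103 by edgeR) and without HB replicate 2 (-0.50, adjusted p = 0.11 by edgeR). The strand opposite to 12.7% of the exonic length of Smarcd1 carries Gm17349 and Gm34939.

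Smarcd2 was at 62.3 and 63.9 CPM (ES), 77.4 and 77.3 (HB), 88.5 and 63.5 (HE1), 81.0 and 100.0 (HE2), and 106 and 87.6 (HP). The HP libraries lay above those of ES and HB, and the HE1 libraries were far apart, on either side of HB. It rose 1.54-fold from ES to HP (log2 fold change 0.62 ± 0.18 SE, adjusted p = 0.0158 by edgeR). The call did not hold without ES replicate 1 (adjusted p = 0.0955 by edgeR), ES replicate 2 (0.0782), or HP replicate 1 (0.128).

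Per kb, Smarcd1 gave 65.1% ± 0.070 (SD, n = 2) of the Smarcd RNA in ES and 45.3% ± 2.4 in HP, while Smarcd2 went from 32.8% ± 0.073 to 54.2% ± 2.3. The Smarcd2 share was 39.2% ± 0.98 in HB, 46.8% ± 2.4 in HE1, and 50.7% ± 2.4 in HE2. In HP Smarcd2 was the larger part in both libraries (55.8% and 52.6%), and in HE2 in 1 of 2 (49.0% and 52.4%). Which of them leads depends on the length correction, as without it Smarcd2 held 47.8% ± 2.4 and Smarcd1 51.5% ± 2.0 in HE2, and 51.3% ± 2.3 and 48.1% ± 2.4 in HP, where HP replicate 2 had 87.6 CPM of Smarcd2 and 87.8 CPM of Smarcd1. The log2 ratio of Smarcd2 to Smarcd1 differed between stages (exact permutation test, p = 0.00106, the smallest that the test can give, adjusted over 5 ratios 0.00529), with HP 1.25 above ES.

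Smarcd3, the member of the family known from heart and muscle, was the least abundant subunit gene after ES. It was at 5.62 and 5.73 CPM (ES), 5.72 and 5.12 (HB), 3.78 and 5.94 (HE1), 1.77 and 0.793 (HE2), and 1.46 and 1.02 (HP). All 4 libraries of HE2 and HP lay below all 6 of the earlier stages, and all 10 were above the floor of 3 counts. From HE1 to HE2 the RNA fell by 1.92 on the log2 scale (± 0.42 SE, adjusted p = 0.0213 by edgeR), and from ES to HP by 2.19 (± 0.42 SE, adjusted p = 0.00148 by edgeR). The change from HE1 to HP was -1.97 (adjusted p = 0.00798 by edgeR).

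The higher of the HE1 values of Smarcd3 came from HE1 replicate 2, the library with more Tnnt2 and ES marker RNA than HE1 replicate 1. Without it the change from HE1 to HE2 was -1.56 (adjusted p = 0.0985 by edgeR) and that from HE1 to HP -1.60 (adjusted p = 0.0446 by edgeR). Without HE2 replicate 2 the change from HE1 to HE2 was -1.44 (adjusted p = 0.152 by edgeR). Of the exonic length of Smarcd3, 48.2% lies opposite to Chpf2 or Mir671, and counting used the strand. The log2 ratio of Smarcd3 to Smarcd1 was 1.53 on the log2 scale below ES in HP, at -6.15 against -4.61 (exact permutation test over stages, p = 0.0476, adjusted over 5 ratios 0.0476), and this adjusted p was above 0.05 without either library of ES (0.0836 and 0.0836), HB (0.0804 and 0.0815), or HP (0.114 and 0.0698) and without HE1 replicate 2 (0.0709).

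The Arid1 subunits, which bind DNA through an ARID domain and exclude one another from a complex, changed through Arid1b. Arid1b was at 75.6 and 77.5 CPM (ES), 97.4 and 108 (HB), 155 and 120 (HE1), 139 and 168 (HE2), and 145 and 148 (HP). The stages ES, HB, and the 3 later ones lay in this order with no overlap. Arid1b rose 1.92-fold from ES to HP (log2 fold change 0.94 ± 0.16 SE, adjusted p = 0.000685 by edgeR), while the early steps missed the threshold at 0.42 from ES to HB (adjusted p = 0.0564 by edgeR) and 0.42 from HB to HE1 (adjusted p = 0.0648 by edgeR). The first passed in 6 of 17 alternatives (lowest adjusted p = 0.00222 by edgeR, highest 0.257). The second passed in 2 of 17, and was 0.60 without HE1 replicate 2 (adjusted p = 0.0201 by edgeR) but 0.18 without HE1 replicate 1 (adjusted p = 0.414 by edgeR).

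Arid1a was at 623 and 652 CPM (ES), 516 and 560 (HB), 501 and 416 (HE1), 492 and 628 (HE2), and 542 and 550 (HP). The HE2 libraries alone spanned most of this range. No comparison passed the threshold, and HP differed from ES by -0.22 ± 0.17 (SE) on the log2 scale (adjusted p = 0.298 by edgeR). Arid1b made up 9.86% ± 0.13 (SD, n = 2) of the Arid1 RNA per kb in ES, 14.8% ± 0.17 (HB), 21.4% ± 0.85 (HE1), 20.5% and 19.6% in the libraries of HE2, and 19.7% ± 0.071 (HP). The log2 ratio of Arid1b to Arid1a differed between stages (exact permutation test, p = 0.00317, adjusted over 5 ratios 0.00529) and was 1.16 higher in HP than in ES.

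**Figure D2:**
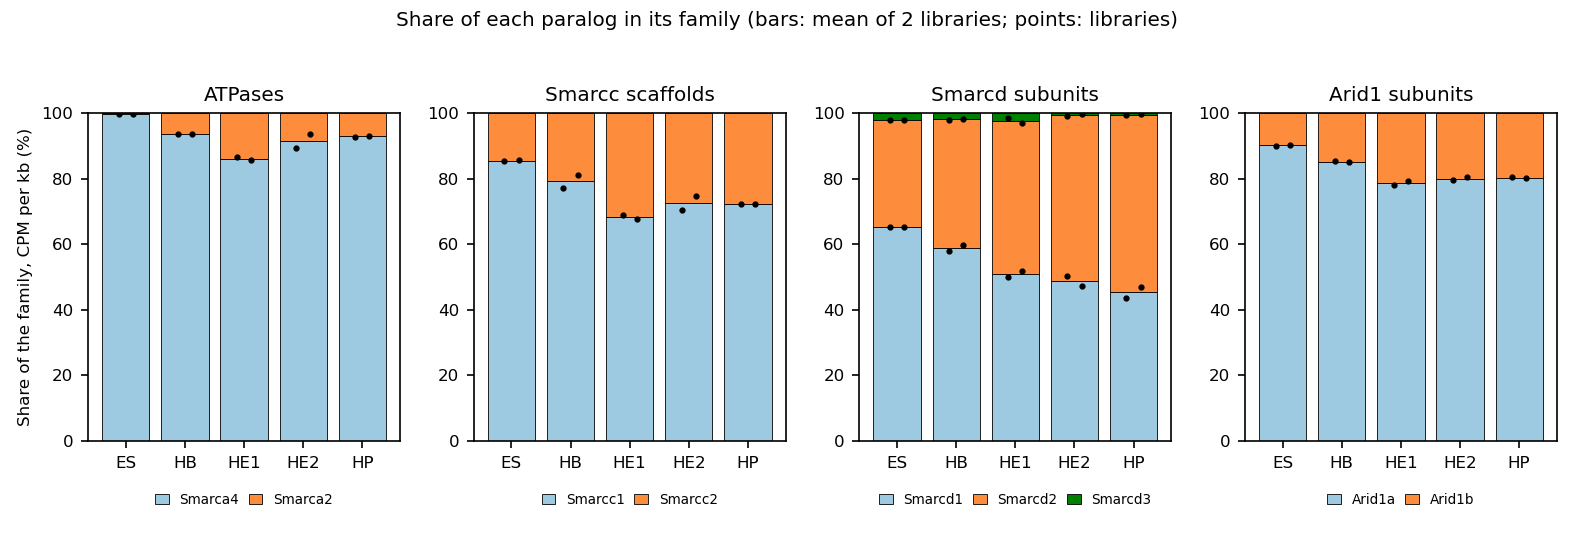
Share of each paralog in the RNA of its family (CPM per kb of exon, %, stacked to 100%) at the 5 stages, with bars for the mean of 2 libraries and points for the boundaries in each library. Parts larger than in ES were taken later by Smarcc2 (31.7%) and Arid1b (21.4%) in HE1 and by Smarcd2 (54.2%) in HP, and by Smarca2, which went from 0.323% in ES to 13.9% in HE1 and 7.15% in HP, whereas Smarcd3 went from 2.07% in ES to 0.483% in HP.

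Actl6a, the actin-related subunit of dividing progenitors, was at 146 and 149 CPM (ES), 107 and 99.9 (HB), 87.1 and 79.4 (HE1), 90.8 and 102 (HE2), and 100.0 and 89.0 (HP). The ES libraries lay above all others. Actl6a fell by 0.51 on the log2 scale from ES to HB (± 0.14 SE, adjusted p = 0.0116 by edgeR) and by 0.64 from ES to HP (± 0.14 SE, adjusted p = 0.00256 by edgeR). The first of these was lost without either ES library (adjusted p = 0.09 and 0.101 by edgeR) and without either HB library (0.0593 and 0.101). Its paralog Actl6b, the neuronal form, had 0 counts in 7 of 10 libraries and at most 6, in HE1 replicate 2, and did not pass the filter. The strand opposite to 11.6% of the exonic length of Actl6a is used by Mrpl47.

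The stage at which the subunit genes changed was compared step by step. From ES to HB, Smarca2 and Smarcc2 rose and Actl6a fell, or 2 of 10 genes higher and 1 lower, where 17.8% of all tested genes were called higher and 22.6% lower. From HB to HE1, Smarca2 rose and Smarcc1 and Smarcd1 fell, against 17.5% of all tested genes higher and 14.8% lower. From HE1 to HE2 only Smarcd3 was called, as lower, against 6.12% of all tested genes higher and 7.11% lower. These shares moved with single libraries, most in the step from HE1 to HE2, where 337 to 2790 genes were called higher and 136 to 3282 lower with 1 library left out, against 1384 and 1606 with all. The median log2 fold change of the 10 genes in these steps was 0.10, -0.19, and 0.24, and that of all tested genes 0.0, 0.04, and -0.08.

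From HE2 to HP none of the 10 subunit genes was called by edgeR, and with 0.0% of all tested genes higher and 0.0% lower the same held for the whole table with all 10 libraries. Up to 56 genes were called higher and up to 577 lower without either HE1 library or HE2 replicate 2. At an unadjusted p under 0.05 there were 0 of the 10 and 1783 of all tested genes by edgeR. limma-voom and DESeq2 called 66 and 421 genes at an adjusted p under 0.05, again with 0 of the 10. The log2 fold changes of the subunit genes between HE2 and HP lay between -0.34 for Smarca2 and 0.09 for Smarcd2, with a median of -0.04.

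Between the ends of the path, from ES to HP, 4 of 10 were higher (Smarca2, Smarcc2, Arid1b, and Smarcd2) and 3 lower (Smarcd3, Smarcd1, and Actl6a), where 24.1% of all tested genes were called higher and 27.5% lower. The median log2 fold change was 0.02 against -0.01 for all tested genes. The comparison of HP with HE1 was added after the values had been seen, because the study uses HE1 as its hemogenic endothelium. It called 1 of 10 higher (Smarcc1) and 2 lower (Smarca2 and Smarcd3), against 11.0% and 13.9% of all tested genes. With 1 library left out, 937 to 3486 genes were called higher and 1261 to 4189 lower, against 2495 and 3142 with all. These comparisons share libraries and are not independent of each other.

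**Figure D3:**
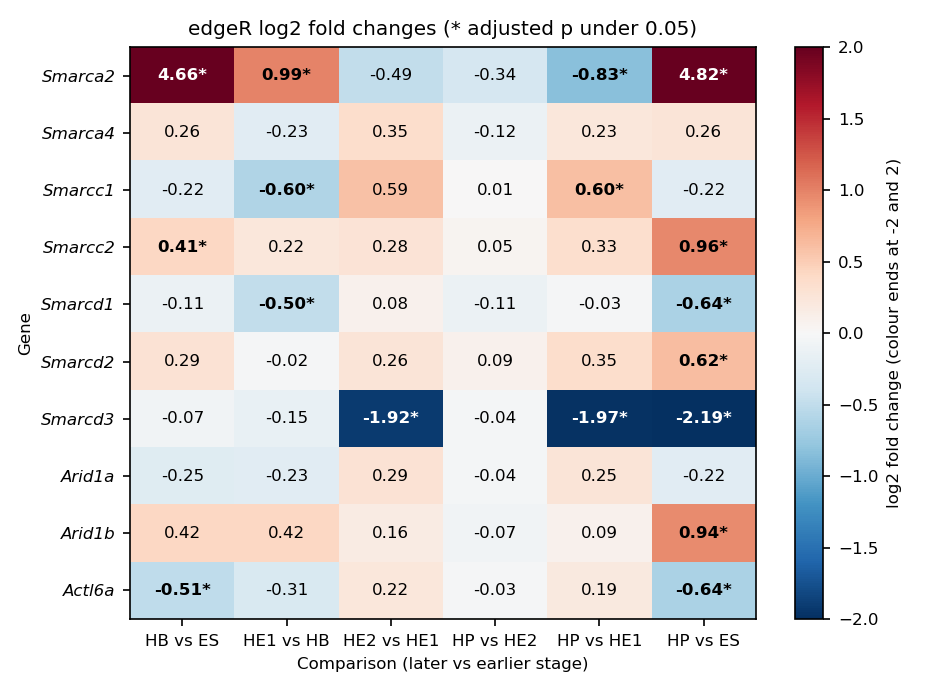
Log2 fold changes (colour and printed values, later minus earlier stage) of the 10 BAF subunit genes in 6 comparisons, with an asterisk for an adjusted p under 0.05 by edgeR. Smarca2 holds the highest values, at 4.66 and 4.82, and the column from HE2 to HP has no asterisk.

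The order of the subunit genes by CPM per kb also changed along the path. In ES it ran from Smarcc1 (62.6 ± 0.39, SD, n = 2) through Arid1a (55.5 ± 1.8), Smarca4 (53.8 ± 1.2), Actl6a (38.0 ± 0.43), Smarcd1 (34.9 ± 0.50), Smarcd2 (17.6 ± 0.31), Smarcc2 (10.6 ± 0.028), Arid1b (6.08 ± 0.11), and Smarcd3 (1.11 ± 0.016) to Smarca2 (0.175 ± 0.0026). Arid1a and Smarca4 overlapped there and no other neighbours did. In HP it ran from Smarca4 (64.3 ± 1.8) through Smarcc1 (53.7 ± 3.7), Arid1a (47.6 ± 0.51), Smarcd2 (27.0 ± 3.6), Actl6a (24.4 ± 2.1), Smarcd1 (22.4 ± 0.91), Smarcc2 (20.6 ± 1.3), Arid1b (11.6 ± 0.18), and Smarca2 (4.96 ± 0.29) to Smarcd3 (0.242 ± 0.061). The neighbours Smarcd2 and Actl6a, and Actl6a and Smarcd1, overlapped in HP. Smarca4 stood first in HB and HE1 as well, and in HE2 its libraries overlapped with those of Smarcc1.

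The summed levels of the families were set beside their makeup. The Arid1 genes together gave 61.6 ± 1.9 CPM per kb (SD, n = 2) in ES and 59.2 ± 0.68 in HP, and the Smarcc genes 73.1 ± 0.36 and 74.3 ± 5.0. The Smarcd genes gave 53.6 ± 0.82 in ES and 49.7 ± 4.6 in HP. The ATPases gave 54.0 ± 1.2 in ES and 69.3 ± 2.1 in HP, with no overlap of the libraries. In HE1 the sums were 51.8 ± 6.2 for Smarcc, 50.9 ± 7.2 for Arid1, and 45.0 ± 8.2 for Smarcd, each the lowest mean of the 5 stages, and 63.6 ± 9.5 for the ATPases. HE1 replicate 1 gave 56.2 for Smarcc, 55.9 for Arid1, and 50.8 for Smarcd, and HE1 replicate 2 gave 47.5, 45.8, and 39.2. By replicate 1, only the Smarcc sum was below the means of all other stages. Arid1 was at 55.0 in HB, and Smarcd at 49.7 in HE2 and HP. These sums were not tested.

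The other genes of BAF complexes and of the related PBAF and ncBAF complexes were examined as a list of 21, of which 20 passed the filter. From ES to HB 9 of them rose and 2 fell, and from ES to HP 9 rose and 3 fell, where 17.8% and 22.6% of all tested genes were called higher and lower in the first comparison and 24.1% and 27.5% in the second. In the same comparisons these 20 genes had medians of 0.32 and 0.29 on the log2 scale, against 0.0 and -0.01 for all tested genes. Smarce1, a core subunit with an HMG domain, was at 58.0 and 57.9 CPM in ES and between 143 and 199 CPM in every later library, a rise of 1.54 on the log2 scale from ES to HB (adjusted p = 2.29e-05 by edgeR) and of 1.65 from ES to HP (adjusted p = 8.15e-06 by edgeR). Bicral, a subunit of ncBAF, was at 115 and 116 CPM in ES and between 29.5 and 44.3 CPM later, with a log2 fold change of -1.45 from ES to HB (adjusted p = 2.06e-05 by edgeR) and of -1.88 from ES to HP (adjusted p = 2.31e-06 by edgeR).

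The Dpf genes encode alternative readers of histone acylation that fill 1 place in canonical BAF. Dpf2 was the most abundant per kb of the Dpf genes in every library, at 9.08 to 14.2 CPM per kb, and was higher in HB and in HP than in ES (log2 fold change 0.50 in both, adjusted p = 0.0239 and 0.0186 by edgeR). Dpf3 was at 0.62 and 0.487 CPM (ES), 19.7 and 21.6 (HB), 1.22 and 1.78 (HE1), 2.07 and 1.43 (HE2), and 3.74 and 4.38 (HP). HB thus stood alone, with a log2 fold change of 5.20 from ES (adjusted p = 3.14e-06 by edgeR) and of -3.77 from HB to HE1. Dpf1, best known from neurons, was at 22.2 and 21.1 CPM in ES and 10.2 and 9.01 in HB, and lay between 1.43 and 4.03 CPM afterwards. Its log2 fold change was -1.17 from ES to HB, -1.52 from HB to HE1, -1.12 from HE1 to HE2, and -3.19 from ES to HP. Between ES and HP the change of Dpf3 was 2.85.

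Bcl11a and Bcl11b are zinc finger proteins of blood and other lineages that join BAF complexes. Bcl11a was at 5.34 and 4.90 CPM (ES), 15.9 and 14.3 (HB), 3.66 and 7.82 (HE1), 12.9 and 21.3 (HE2), and 15.2 and 13.4 (HP). It dipped in HE1, with log2 fold changes of 1.56 from ES to HB, -1.39 from HB to HE1, and 1.57 from HE1 to HE2. Bcl11b was at or above 4.59 CPM in the ES and HB libraries and at or below 2.21 CPM in the others, with log2 fold changes of -1.68 from HB to HE1 and -2.92 from ES to HP. The list had 1 gene higher and 8 lower from HB to HE1, where 17.5% and 14.8% of all tested genes were called, 1 higher and 1 lower from HE1 to HE2 (6.12% and 7.11%), and 3 higher and 1 lower from HE1 to HP (11.0% and 13.9%), the last led by Bcl11b at -1.53, Dpf3 at 1.42, and Bcl11a at 1.31. From HE2 to HP edgeR and limma-voom called 0 and DESeq2 called 1. Without HE1 replicate 2, 5 genes of the list were lower from HB to HE1, among them Dpf3 (-4.08), Bcl11b (-2.08), Bcl11a (-2.04), and Dpf1 (-1.85). Calls were then lost for Dpf1 from HE1 to HE2 (-0.79, adjusted p = 0.153 by edgeR) and, from HE1 to HP, for Bcl11b (-1.12, adjusted p = 0.223 by edgeR) and Phf10 (0.61, adjusted p = 0.0823 by edgeR), while Bcl11a was at 2.22 from HE1 to HE2 (adjusted p = 0.0159 by edgeR).

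**Figure D4:**
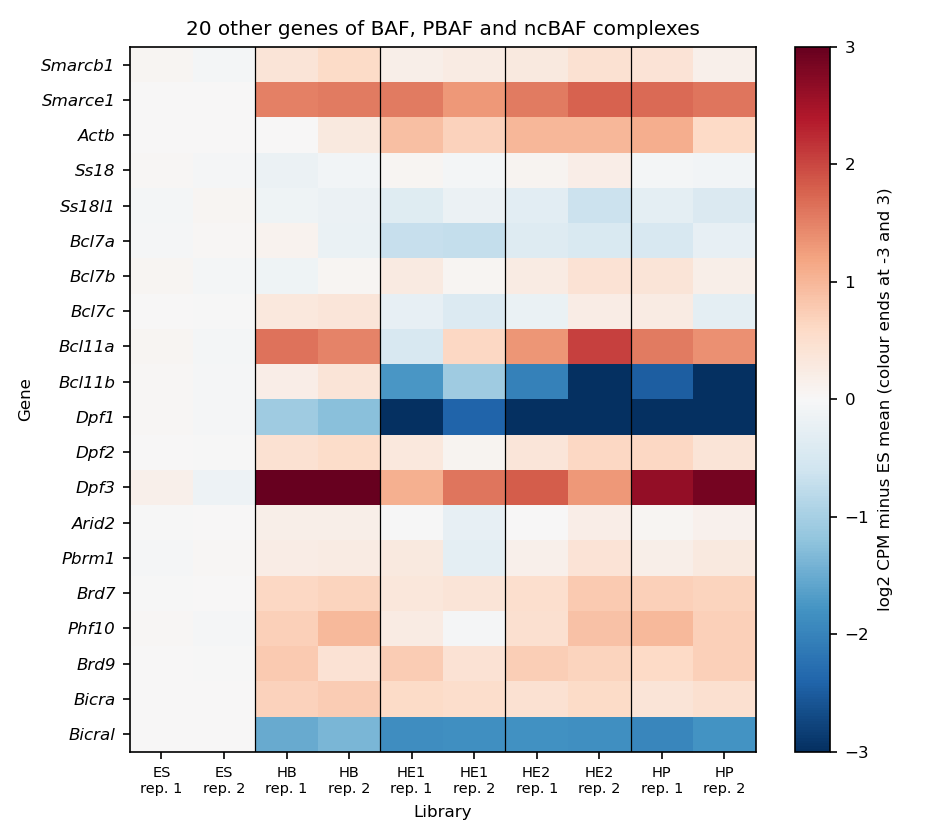
Log2 CPM minus the mean of the ES libraries (colour, ending at -3 and 3) of 20 further BAF, PBAF, and ncBAF genes in each of the 10 libraries. Smarce1 was higher and Bicral lower than ES in every later library, and Dpf3 stood out in both HB libraries.

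As a comparison, 18 ATPase genes of other remodelling families were taken. From ES to HB 4 rose and 8 fell, and from ES to HP 2 rose and 8 fell, against the same 17.8% and 22.6%, and 24.1% and 27.5%, of all tested genes. Their medians were -0.30 and -0.23 on the log2 scale, against 0.0 and -0.01 for all tested genes. Atrx, which maintains heterochromatin, was at 1014.2 and 1047.2 CPM in ES and between 240 and 330 CPM later, and fell by 1.69 from ES to HB on the log2 scale (adjusted p = 4.74e-05 by edgeR). Chd9 and Chd5, of the CHD family, had log2 fold changes of -1.94 (adjusted p = 5.83e-06 by edgeR) and -2.77 (adjusted p = 0.00651 by edgeR) in the same step, and -1.73 and -4.17 from ES to HP. From HB to HE1 the called genes were Chd9 at 0.59, the ISWI gene Smarca1 at -1.08, and Hells, needed for DNA methylation at repeats, at -0.83. Chd3, of the NuRD complex, and Smarca1 were called lower in HE2 than in HE1, with log2 fold changes of -1.31 and -1.12, and lower in HP than in HE1, at -1.59 and -1.06. None was called from HE2 to HP by edgeR. Without HE1 replicate 2 Smarca1 kept log2 fold changes of -1.06 from HB to HE1, -1.14 from HE1 to HE2, and -1.08 from HE1 to HP but missed the threshold with fewer libraries (adjusted p = 0.0502, 0.0914, and 0.0541 by edgeR). The calls of Chd9, Hells, and Chd3 held, Smarcad1 was higher in HE1 than in HB (0.55, adjusted p = 0.0226 by edgeR, against 0.40 and 0.0661), and Chd5 was lower in HE1 than in HB (-1.85, adjusted p = 0.0243 by edgeR) where it had been at 0.10 (0.922).

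Genes with courses most like those of Smarca2 and Smarcd3 were sought by Pearson's r of log2 CPM over the 10 libraries, as a description. Closest to Smarca2 were ENSMUSG00000118456 (r = 0.998), 2510009E07Rik (0.997), Rhoj, a small GTPase of endothelium (0.997), Phlda1 (0.996), and Pear1, a receptor of platelets and endothelium (0.994). Among those closest to Smarcd3 were Gpr161 (0.991), Spsb4 (0.988), Gjc1, a connexin of heart (0.983), and Fbxl2 (0.981). Like Smarca2, all of the genes closest to it had their highest stage mean in HE1, from 11.2 CPM for 2510009E07Rik to 121 CPM for Pear1. Their choice by r favours such a shared peak. Among the subunit genes themselves Smarcc1 went with Arid1a (r = 0.942), Smarcc2 with Arid1b (0.943), and Smarca2 against Actl6a (-0.949). The points of these correlations share their stage, so that the 10 libraries amount to 5 stages.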

How the data were processed

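Nuclear RNA, depleted of rRNA and prepared with a stranded kit, was sequenced in 2 libraries per stage. The authors removed rRNA reads and aligned the rest with HISAT2 (v2.2.1) to the mm10 assembly, and the deposited counts are read pairs counted on exons of Ensembl release 102 genes with featureCounts (v2.0.1). Where genes overlapped, 1 pair added to the count of each, and counting used the strand. The expression score per stage in the authors' matrix is their mean after normalization and was used for gene names and 1 alternative. The libraries of a stage were biological replicates per the study, and p-values measure the spread between these libraries.

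Counts were fitted with edgeR (v4.0.16, R v4.3.3): TMM scaling, filterByExpr on stage, stage as the only term, all 10 libraries, 5 residual degrees of freedom, and Benjamini-Hochberg adjustment over 22596 genes. Log2 CPM used a prior count of 2. CPM per kb used the exon length in the tables. Ratios were tested by exact permutation, which is one-sided in F and covers either direction. The fit was tested on simulated data. Alternatives were limma-voom (v3.58.1), DESeq2 (v1.42.0), library totals, no filter, only the compared libraries, a replicate block, library sizes without the 20 most counted genes, a 2-fold minimum, and leaving out each library. For ratios, a prior count of 0.5 and the authors' stage means were also tried, and for shares no length correction. All members were named. From the wider lists, the 3 called genes with the greatest change in a comparison were named, and for the pair of members with the widest range the 5 genes of highest r, of which 1 is not reported here. Actl6b, Bicral, Dpf2, Phf10, and Smarcad1 were named after their values were seen. The members and lists were chosen with earlier results of these data known.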

Additional observations from a re-analysis of the deposited data

How the results depend on the processing

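Rises of Smarca2, Smarcc2, and Arid1b and falls of Smarcd1, Smarcd3, and Actl6a from ES to HP kept their direction and stayed past the threshold under all 17 alternatives that changed the tool, scaling, filter, block, or libraries, and Smarcd2 under 14 of them (not without either ES library or HP replicate 1). The rise of Smarca2 from ES to HB and from HB to HE1 and the falls of Smarca2 and Smarcd3 from HE1 to HP also kept their calls under all 17. Other calls between neighbouring stages did not. Settings with left-out libraries rest on fewer samples, and a stage left with 1 library was assumed to vary like the other stages. The cause was not tested for the other changes given here.

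With library totals in place of TMM, 4 subunit genes were called higher from ES to HB, 2 from HB to HE1, and 1 higher and 2 lower from HE1 to HE2. With only the 4 libraries of the compared stages, 5 were higher from ES to HB, 0 lower from HE1 to HE2, and 0 higher from HE1 to HP. Without the filter 1 was higher from ES to HB, and limma-voom, DESeq2, and the fit without the filter each called 1 higher (Smarcc1) from HE1 to HE2. A minimum of 2-fold left 1 call from ES to HB, 0 from HB to HE1, 2 from ES to HP, and 1 from HE1 to HP. Of the wider list of 20 genes, only the compared libraries gave 0 higher from HB to HE1, 0 higher and 0 lower from HE1 to HE2, and 0 lower from HE1 to HP. DESeq2, library totals, no filter, and library sizes without the 20 most counted genes gave 2 higher from HE1 to HE2, DESeq2 gave 1 higher from HE2 to HP, and limma-voom gave 0 lower from HE1 to HE2 and 0 lower from HE1 to HP.

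Libraries of the same number share only that number, and their deviations from the stage means correlated between -0.316 and 0.213. With a replicate block, 1 subunit gene was called higher from ES to HB, 1 lower from HB to HE1, and 0 higher from HE1 to HP, as Smarcc2 (adjusted p = 0.064 by edgeR) and Smarcc1 (0.0518 and 0.0633) lost their calls. In the wider list the block gave 0 higher from HB to HE1, 0 lower from HE1 to HE2, and 0 lower from HE1 to HP.

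Leaving out each library gave, for subunit genes called higher, 1 to 3 from ES to HB, 1 to 2 from HB to HE1, 0 to 1 from HE1 to HE2, and 0 to 2 from HE1 to HP, and for those called lower 0 to 1, 0 to 2, 0 to 2, and 2 in the same comparisons. For the wider list the ranges were 0 to 1 higher and 4 to 8 lower from HB to HE1, 0 to 3 higher and 0 to 2 lower from HE1 to HE2, and 1 to 3 higher and 0 to 1 lower from HE1 to HP. Calls were lost for Smarcc2 from ES to HB without either library of ES, HB, or HP, and for Actl6a from ES to HB without either library of ES or HB. From HB to HE1, Smarcc1 lost its call without either HB library or HE1 replicate 2, and Smarcd1 without HB replicate 2 or HE1 replicate 2. Smarcd3 lost its call from HE1 to HE2 without HE1 replicate 2 or HE2 replicate 2, and Smarcc1 from HE1 to HP without either library of ES, HB, or HP or without HE1 replicate 2. The difference between HP and ES in the log2 ratio of Smarcd3 to Smarcd1 lay between -1.74 and -1.32, with an adjusted p of 0.0254 to 0.114 over the left-out libraries, and it was above 0.05 without either library of ES, HB, or HP or without HE1 replicate 2. The other 4 ratios stayed past the threshold in each case.

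Log2 fold changes that turned their sign were below the threshold on either side. With library totals Smarcd3 was at 0.02 from ES to HB, Smarcd1 at -0.00426 from HE1 to HE2, and Smarcd3, Arid1a, and Actl6a at 0.000782, 0.03, and 0.03 from HE2 to HP. limma-voom gave 0.06 for Smarcd3 and only the compared libraries gave -0.00108 for Smarcc1 from HE2 to HP. Over left-out libraries Smarcd3 ranged from -0.12 to 0.01 from ES to HB and from -0.51 to 0.09 from HB to HE1, Smarcd2 from -0.33 to 0.20 from HB to HE1, and Smarcd1 from -0.07 to 0.28 and Arid1b from -0.02 to 0.38 from HE1 to HE2. From HE2 to HP the ranges were -0.29 to 0.07 for Smarca4, -0.22 to 0.28 for Smarcc1, -0.05 to 0.15 for Smarcc2, -0.05 to 0.26 for Smarcd2, -0.50 to 0.65 for Smarcd3, -0.20 to 0.15 for Arid1a, -0.20 to 0.08 for Arid1b, and -0.12 to 0.06 for Actl6a, and from HE1 to HP -0.18 to 0.17 for Smarcd1 and -0.08 to 0.32 for Arid1b. Without the length correction the share of Smarca2 was 0.71% in ES and 14.5% in HP, and no scaling alternative moved the median of all genes by 0.1 on the log2 scale.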
